A study of Mus musculus with 18 samples.

Results

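Skeletal muscle genes were followed across 18 microarrays of mouse thyroid tissue. The set holds 36 genes of contractile proteins, their calcium control and muscle energy supply, taken by gene name or older name from all probes of the array. The probe of highest mean intensity stood for each gene. For tested genes it was chosen among the probes that passed the filter, which for Ttn left out a brighter probe. All 36 had a probe, 65 probes in all, and 19 of the 36 passed the filter on dim probes and were tested among 14684 genes. None of the 19 differed between groups at an adjusted p under 0.05. Some genes of fast muscle fibres, among them the myosin gene Myh4 and the troponin genes Tnnc2 and Tnni2, were high together on single arrays in 3 of the 4 groups.

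The arrays carried laser-captured areas of thyroids from male C57BL/6 mice, 1 area on each array, in 4 groups. These were the central area after partial thyroidectomy (dissected central, n = 5), the central area of normal thyroid (normal central, n = 5), the peripheral area after partial thyroidectomy (dissected peripheral, n = 5) and the peripheral area of normal thyroid (normal peripheral, n = 3). The submitters set the 4 groups against each other in 1 analysis. The labels give no age, no time after surgery and no mouse for an area, so areas of 1 group or of several may share an animal, and p-values over areas may be too small. RNA of an area was amplified and labelled with Cy5, and a common reference RNA of Swiss Webster mice, pooled from embryo and several adult organs including heart, was labelled with Cy3. Skeletal muscle is not among the reference tissues named. Every level below is a log2 ratio of tissue over reference unless it is called a net Cy5 intensity, which is the spot mean minus its local background, and a difference between groups is a difference of log2 ratios.

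A muscle fibre shortens when myosin heads pull on actin filaments in the sarcomere. Calcium released from the sarcoplasmic reticulum, through the ryanodine receptor that the surface calcium channel governs, binds troponin C and so frees actin for myosin. Fast and slow fibres use different genes for myosin heavy chains, myosin light chains and troponins, and the slow versions are largely shared with heart. Skeletal muscle is not a part of the thyroid, but strap and laryngeal muscles lie against it.

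In Cy5, 24.8% to 44.0% of the probes for genes stood well above background. Of the 18 arrays, 4 were weak, at 24.8% to 29.5%, namely dissected central 1 and 2, dissected peripheral 1 and normal peripheral 1, and the other arrays began at 35.2%. The array labelled dissected central 2 stood apart from its label. The mean of 7 measured C cell genes, which mark the central area, each centred on its own mean, was -0.84 there, against 0.86 to 1.87 on the other dissected central arrays and -2.23 to -1.80 on the dissected peripheral arrays. Calca, which encodes the C cell hormone calcitonin, was at -0.57 there, against 3.05 to 3.88 on dissected central 3, 4 and 5. Normal central 3 alone carried a high level of the parathyroid hormone gene Pth, at 3.99, against -4.99 to -3.98 on the other normal central arrays. Thyroglobulin, the defining gene of thyroid follicle cells, was well above background on all 18 arrays. Each group held 1 position on the slides throughout, so position and group cannot be told apart.

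The probes of the fast myosin heavy chains carry the clearest pattern, and bases of 4 of them are shown because these genes are close relatives that lie side by side on chromosome 11. The sequences come from the array files, whose positions are on the mouse build mm7, and what part of the transcript each probe covers was not determined. The probe of Myh1 lies at chr11:67306002-67306061, that of Myh2 at chr11:67279016-67279075, that of Myh4 at chr11:67341898-67341957 and that of Myh8 at chr11:67389989-67390048, all on the plus strand. Myh8 encodes the perinatal myosin heavy chain and is not a member of the set. Capitals mark the longest run of bases that the Myh1 and Myh8 probes share.
Myh4 probe, bases 1 to 30: gaagaataatccatctttctgttgagaggt
Myh1 probe, bases 1 to 30: gGAGGTTCACACCAAAATCAtaagcgaaga
Myh2 probe, bases 1 to 30: cgcctgtgtgattctattccatcctgttgt
Myh8 probe, bases 27 to 56: gccgaGAGGTTCACACCAAAATCAgcgcag
The shared run is 19 bases of a 60-base probe. The Myh4 probe shares no run above 7 bases with the Myh8 probe, and the probes of Myh1, Myh2 and Myh4 share none above 6 bases with each other. Probes were compared only with each other, so a match to another gene's transcript outside its probe was not looked for.

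Of the 36 genes, 10 were well above background in Cy5 on no array. They are the muscle creatine kinase Ckm, the fast calcium pump Atp2a1, the calcium store protein Casq1, the glycogen phosphorylase Pygm, the slow myosin heavy chain Myh7, the slow regulatory light chain Myl2, the slow troponins Tnnc1 and Tnni1, the Z disc protein Actn2 and the slow myosin binding protein Mybpc1. In the reference, 6 of these 10 were well above background on no array either, and the other 4 on 1 array each. A further 7 genes reached that level on 1 or 2 arrays and were not tested. Among them the Z disc protein Actn3, found in fast fibres, did so on dissected central 2 and normal central 4, and the fast myosin heavy chain Myh2 on dissected peripheral 1 and 2. The fast regulatory light chain Mylpf did so on dissected central 3 and normal central 5. The intermediate filament gene Des, the mitochondrial creatine kinase Ckmt2 and the Z disc gene Ldb3 each did so on 1 array. So did the thin filament ruler Neb, through 1 of its 4 probes, not the one that stands for the gene. The 19 tested genes were 11 of 17 fast fibre genes, 4 of 10 genes of slow fibres and heart, and 4 of 9 others. Of these 19, 6 were well above background on all 18 arrays.

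**Figure D1:**
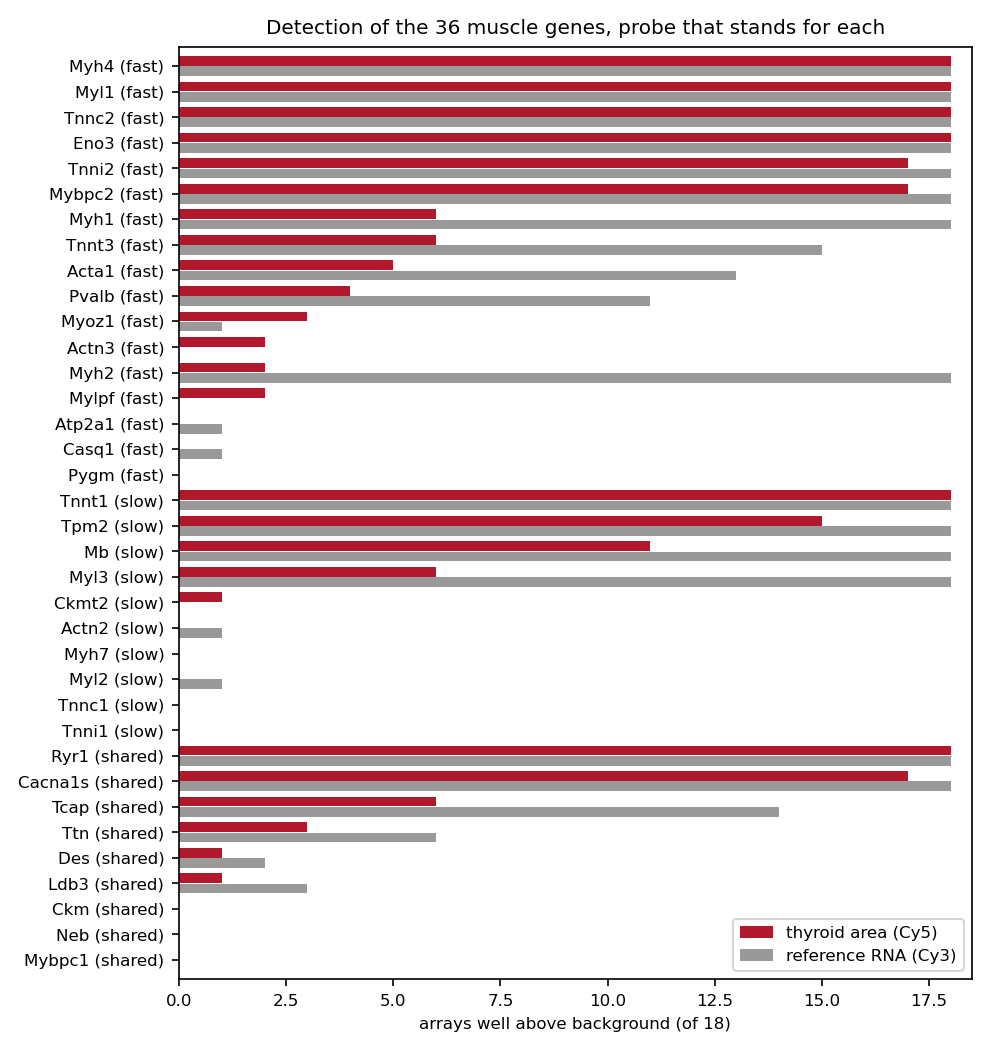
Number of the 18 arrays on which the probe standing for each of the 36 genes was well above background, in thyroid areas (Cy5, red) and in the reference (Cy3, grey), with fast fibre genes at the top, genes of slow fibres and heart below them and shared genes last. Myh4, Myl1 and Tnnc2 reach 18 arrays in both, and Ckm, Pygm, Myh7, Tnnc1, Tnni1 and Mybpc1 are at 0 in both.

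Myh4 encodes the myosin heavy chain of the fastest fibres. Its log2 ratio was 0.43, 3.14, -0.77, -0.93 and -3.03 on dissected central arrays 1 to 5, and -2.97, -3.03, -3.63, 0.70 and -3.02 on normal central arrays 1 to 5. In the periphery it was 1.15, -2.19, 0.58, -3.48 and -2.99 on dissected arrays 1 to 5, and -1.57, -3.15 and -2.31 on normal arrays 1 to 3. Thus 4 of 5 dissected central and 2 of 5 dissected peripheral arrays were high, at -0.93 or above. That cut was set after the values were seen. Among these arrays, dissected central 1 and 2 and dissected peripheral 1 were weak, with a low reference signal for Myh4. Of the normal central arrays, 1 of 5 was high too, at 0.70, and the groups overlapped in both areas. In net Cy5 intensity, Myh4 ranged between 117 on normal peripheral 1 and 6860.4 on dissected central 2, with 6029 on dissected peripheral 3 and 4416 on normal central 4. A second Myh4 probe gave the same picture, with log2 ratios of 2.95 on dissected central 2, 0.05 on normal central 4 and 1.00 on dissected peripheral 1.

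Tnnc2 encodes the calcium-binding troponin of fast fibres. It was at 0.49, 2.26, -0.10, -0.97 and -2.88 on the dissected central arrays, against -2.87, -2.24, -2.65, 1.78 and -2.66 on the normal central arrays. It was at 1.78, -0.77, 0.28, -1.97 and -3.20 on the dissected peripheral arrays, against -1.20, -1.98 and -1.93 on the normal peripheral arrays. Dissected central 1 to 4, normal central 4 and dissected peripheral 1 and 3 were high, as for Myh4, and dissected peripheral 2 was above dissected central 4. Dissected central 5 and dissected peripheral 5 were as low as the low normal arrays. The highest net Cy5 intensity of Tnnc2 was 3708, on normal central 4, against 2136 on dissected central 2.

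Tnni2 encodes the inhibitory troponin of fast fibres. Its log2 ratio was 0.46, 1.41, -0.10, -1.28 and -2.30 on the dissected central arrays, against -2.18, -2.13, -1.74, 1.58 and -1.75 on the normal central arrays. On the peripheral arrays it was 1.23, 0.07, 0.20, -0.55 and -1.38 after dissection, against 0.69, -1.41 and -2.06 in normal thyroid. Normal central 4 was the highest of all 18 arrays, and normal peripheral 1 stood within the range of the dissected peripheral arrays.

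Myl1 encodes an essential light chain of fast myosin. It was at 0.06, 1.91, -0.26, -0.79 and -1.58 on the dissected central arrays, against -2.19, -1.28, -0.60, -0.16 and -0.26 on the normal central arrays. It was at 1.43, 0.22, 0.14, -1.26 and -0.91 on the dissected peripheral arrays, against -0.72, -1.31 and -1.13 on the normal peripheral arrays. For this gene the ratio and the tissue channel ranked the arrays differently. The net Cy5 intensity was 1117 on dissected central 2, against 1038 on normal central 3 and 1109 on normal central 5, although the ratios of those normal arrays were below 0. The second Myl1 probe was well above background on no array in tissue or reference, and its ratio spanned 0.49.

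**Figure D2:**
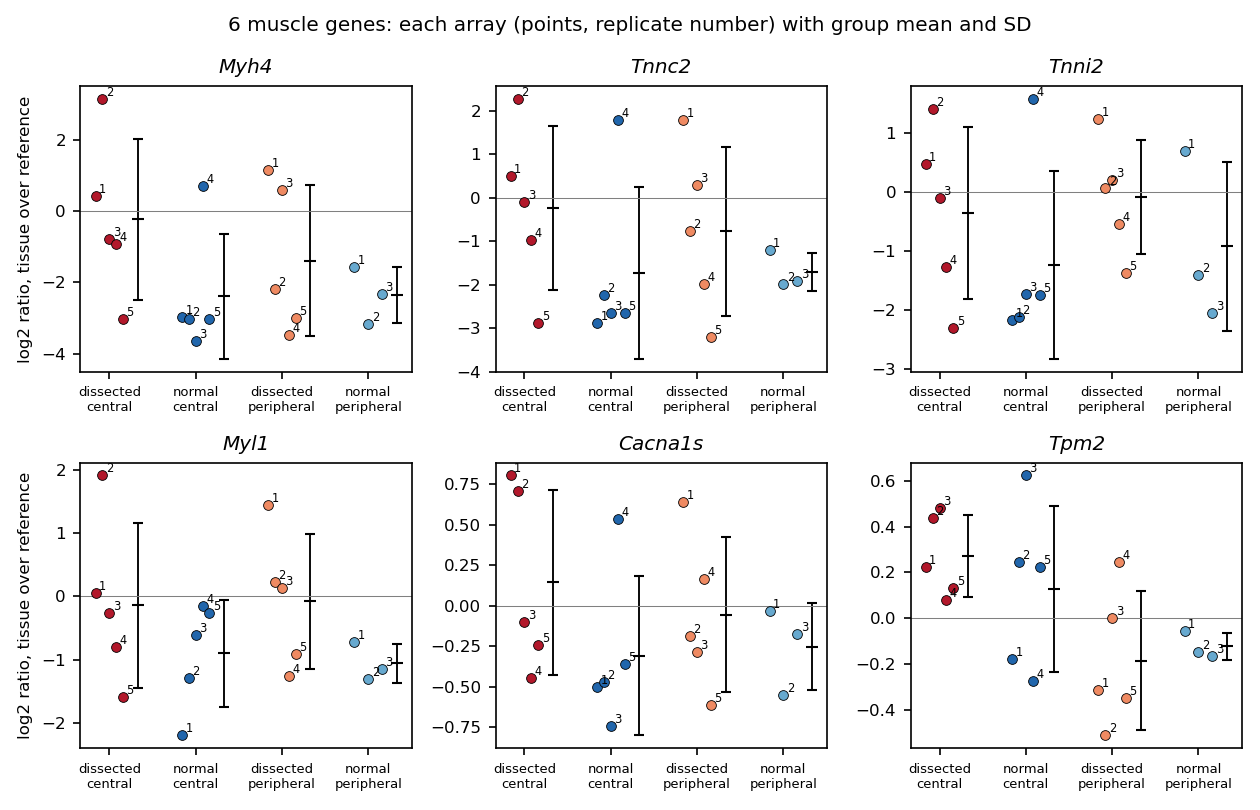
Log2 ratio of tissue over reference (vertical axis) of 6 muscle genes on every array (points, with replicate numbers), with the mean and SD of each group as bars. In Myh4, Tnnc2 and Tnni2, normal central 4 stands far above the other normal central arrays, and the groups overlap in all 6 genes.

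The 3 adult fast myosin heavy chains differed in the arrays on which they were high. Myh1, the chain of fibres of intermediate speed, was well above background on 6 arrays. Its net Cy5 intensity was 1010.0 on dissected central 3 and 389.6 on dissected central 5, against 238 on normal central 3 and 3315 on normal central 4. It was 474 and 573 on dissected peripheral 1 and 2, against 29 to 66 on the normal peripheral arrays, none of which was well above background. On dissected central 2, where Myh4 was highest of all arrays, Myh1 had a net Cy5 intensity of 44, close to the lowest values of that gene. A second probe listed as Myh1, whose coordinates run in the opposite direction, was well above background on all 18 arrays. Its net Cy5 intensity was highest on dissected central 5, at 1726, dissected peripheral 5, at 1701, and normal central 4 and 5, at 739 and 694, and the arrays of replicate 5 shared a slide. The remaining Myh1 probe was well above background on no array. On dissected central 5 both genes were well above background, with net Cy5 intensities of 389.6 for Myh1 and 274 for Myh4. The ratio of Myh4 there was -3.03.

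Myh2, the chain of the slower fast fibres, was above background in tissue only on dissected peripheral 1 and 2 among the 18 arrays. Its net Cy5 intensity there was 574 and 489.7, against at most 98 on any other array. A second Myh2 probe had 294 and 165 on these arrays, against 18 to 95 elsewhere, and its remaining probe was well above background on none. Myh1 and Myh4 were well above background on both arrays too, with net Cy5 intensities of Myh4 of 1759 and 557. These levels of single probes cannot be turned into shares of fibre types.

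**Figure D3:**
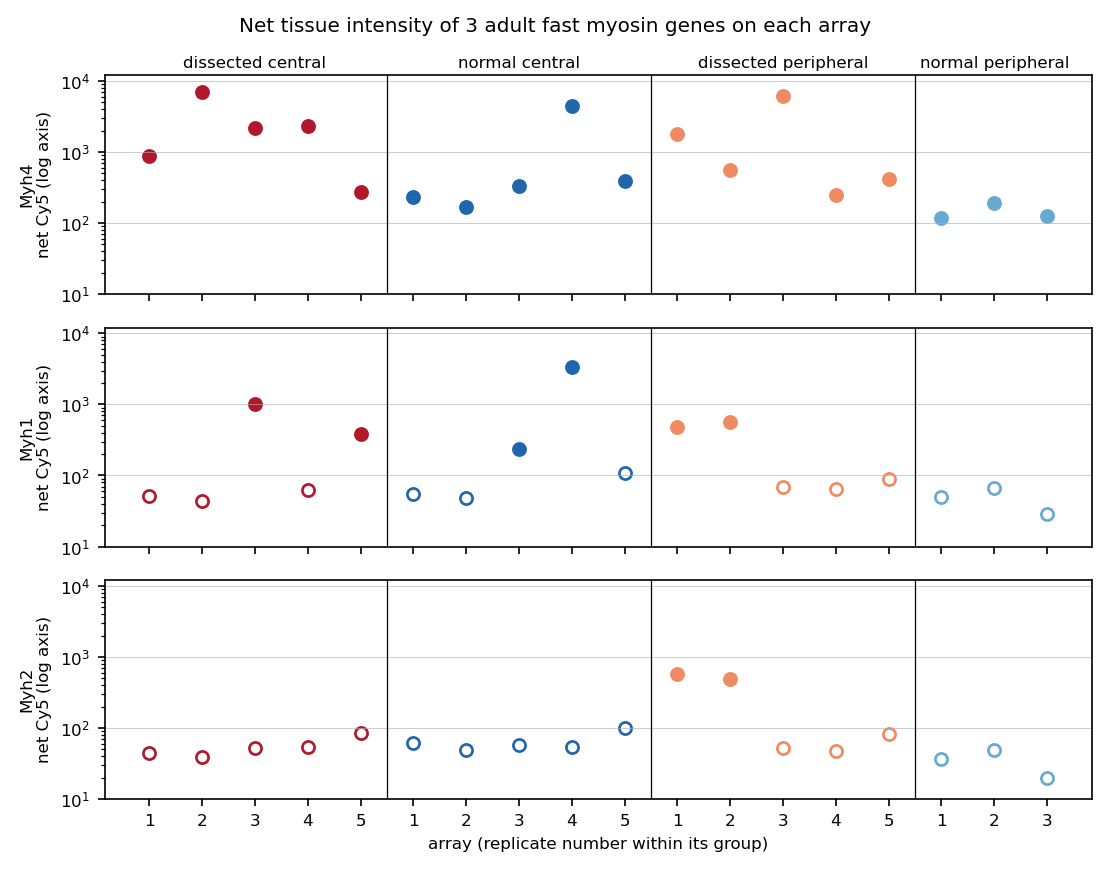
Net Cy5 intensity (log axis, scanner units) of Myh4, Myh1 and Myh2 on each of the 18 arrays, with filled points for spots well above background and open points for the others. Myh4 is filled everywhere and spans 117 to 6860.4, Myh1 is filled on 6 arrays and Myh2 on 2.

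Of the other fast fibre genes, Tnnt3, Pvalb, Acta1 and Myoz1 were dimmer than Myh4, Tnnc2, Tnni2 and Myl1 and moved over a narrower range. Tnnt3, the troponin that anchors the fast complex to tropomyosin, was at 0.71 on dissected central 2, 0.18 on normal central 4 and 0.69 on dissected peripheral 1, against -1.06 at its lowest on normal central 3. Pvalb, a calcium buffer of fast fibres, was at 1.31 on dissected central 2, against -0.36 to -0.12 on the other dissected central arrays, and at 0.41 on normal central 4, against -0.53 to -0.25 on the other normal central arrays. Acta1, the skeletal muscle actin, kept within -0.41 and 0.42, and its net Cy5 intensity within 29 and 131, on all 18 arrays. The Z disc gene Myoz1 was highest on dissected central 2, at 0.73. It passed the filter through 3 arrays, all of dissected thyroid. Eno3, the muscle enolase, was well above background on every array and was highest on normal peripheral 1, at 1.07, and on dissected central 2, at 0.91.

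Mybpc2, the myosin binding protein of fast fibres, followed a pattern of its own. It was at -0.50, 1.48, 0.49, 0.62 and -3.06 on the dissected central arrays, against -0.60, 0.02, -0.47, -0.17 and -1.50 on the normal central arrays. It was at 0.64, -0.87, 0.69, 0.36 and -2.12 on the dissected peripheral arrays, against 1.39, 0.28 and -0.11 on the normal peripheral arrays. The 3 lowest values were those of replicate 5 in each of the 3 groups that have one, and these 3 arrays shared a slide.

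Of the genes that couple the nerve signal to calcium release, Cacna1s, the surface calcium channel, moved with the fast fibre genes in its ratio. It was at 0.81, 0.71, -0.10, -0.45 and -0.24 on the dissected central arrays, against -0.50, -0.47, -0.74, 0.54 and -0.36 on the normal central arrays. It was at 0.64, -0.19, -0.29, 0.17 and -0.61 on the dissected peripheral arrays, against -0.03, -0.55 and -0.17 on the normal peripheral arrays. The reference signal of Cacna1s was low on dissected central 1 and 2 and dissected peripheral 1, with net Cy3 intensities of 106, 102 and 110. Its net Cy5 intensity there was 184, 173 and 188, against 209 on dissected central 5, 220 on dissected peripheral 4 and 391 on normal central 4. The second Cacna1s probe was well above background on no array. The ryanodine receptor Ryr1 did not share the arrays on which the ratio of Cacna1s was high. It was at 0.62 on dissected central 5 and -0.75 to -0.11 on the other dissected central arrays, against 0.43 on normal central 5, 0.11 on normal central 4 and -0.68 to -0.25 on the other normal central arrays. It was at 0.79 on dissected peripheral 5 and -1.02 to -0.48 on the other dissected peripheral arrays, against 0.68, -0.44 and 0.65 on the normal peripheral arrays. The other 2 probes of Ryr1 were well above background on no array.

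Ttn, the giant spring protein of the sarcomere, and Tcap, which caps it, were dim. Ttn was well above background on 3 arrays, at 0.55 on dissected central 2, 0.26 on dissected central 3 and 0.81 on dissected peripheral 2, and on none of the normal arrays. This probe passed the filter only through these dissected arrays, so its absence on normal arrays and its change after dissection partly follow from the filter. Of the other 8 Ttn probes, 2 were well above background on other arrays, normal central 1 and 4 among them. The brightest of all, which did not pass the filter, averaged 0.015 in dissected and 0.106 in normal central areas. Tcap was well above background on 6 arrays, and was highest on dissected peripheral 1, at 0.72, and dissected central 3, at 0.56.

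The log2 ratios of the tested slow fibre genes spanned a range of 0.70 (Myl3) to 2.17 (Mb), against 6.77 for Myh4. The ranges of the fast fibre genes Acta1, Myoz1, Tnnt3, Eno3 and Pvalb were similar, at 0.83 to 1.87. Tnnt1, the slow troponin T, was well above background on all arrays and was highest on normal peripheral 1, at 1.26, against -0.47 to 0.58 on the other arrays. Tpm2, a tropomyosin that smooth muscle also makes, was at 0.22, 0.44, 0.48, 0.08 and 0.13 on the dissected central arrays. It was at -0.31, -0.51, -0.0011, 0.24 and -0.35 on the dissected peripheral arrays. Mb, the oxygen store of muscle, was highest on dissected peripheral 1, at 0.82, and lowest on dissected central 5, at -1.36. Myl3, a light chain of slow fibres and ventricle, stayed within -0.88 and -0.18. This probe was well above background on no dissected central array, while its second probe was so on dissected central 2 and 3. The second probe was highest on the arrays where Myh4 was highest, at 0.58 on dissected central 2 and 0.50 on dissected peripheral 1.

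The tested genes varied together over the arrays to differing degrees. Over the 18 arrays, which share the reference RNA and differ in depth, Tnnc2 had a Pearson correlation of 0.95 with the mean of the other 18 tested genes. It was 0.91 for Tnnt3 and Tnni2, 0.88 for Myh4 and 0.86 for Acta1, and 11 of the 19 genes were at or above 0.7. At the other end were Tnnt1 with 0.25, Tpm2 with -0.03 and Ryr1 with -0.30. Of the 11, Tnnt3 and Tcap were well above background in Cy5 on 6 arrays, Acta1 on 5, Pvalb on 4, and Ttn and Myoz1 on 3. On the other arrays their Cy5 was near background, so their correlations cannot be read as shared levels in tissue. For Tnnt3, net Cy5 was 94 on dissected central 2 and 66 on normal central 3, while net Cy3 was 49 and 148. The mean of the 19 genes, each centred on its own mean, was 0.36, 1.05, 0.37, -0.11 and -0.51 on the dissected central arrays, against -0.58, -0.37, -0.43, 0.71 and -0.41 on the normal central arrays. It was 0.91, 0.05, 0.16, -0.30 and -0.60 on the dissected peripheral arrays, against 0.37, -0.41 and -0.26 on the normal peripheral arrays. Dissected central 2 held the highest ratio of 8 of the 19 genes, and on normal central 4 a total of 18 genes were above their own mean. All 4 weak arrays were among the 6 arrays with the highest mean. On 3 of them the reference signal of Myh4 was also low, with a net Cy3 intensity of 738 on dissected central 1, 771 on dissected central 2 and 751 on dissected peripheral 1, against 1049 to 3584 on all other arrays. Differences without the weak arrays are given below.

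**Figure D4:**
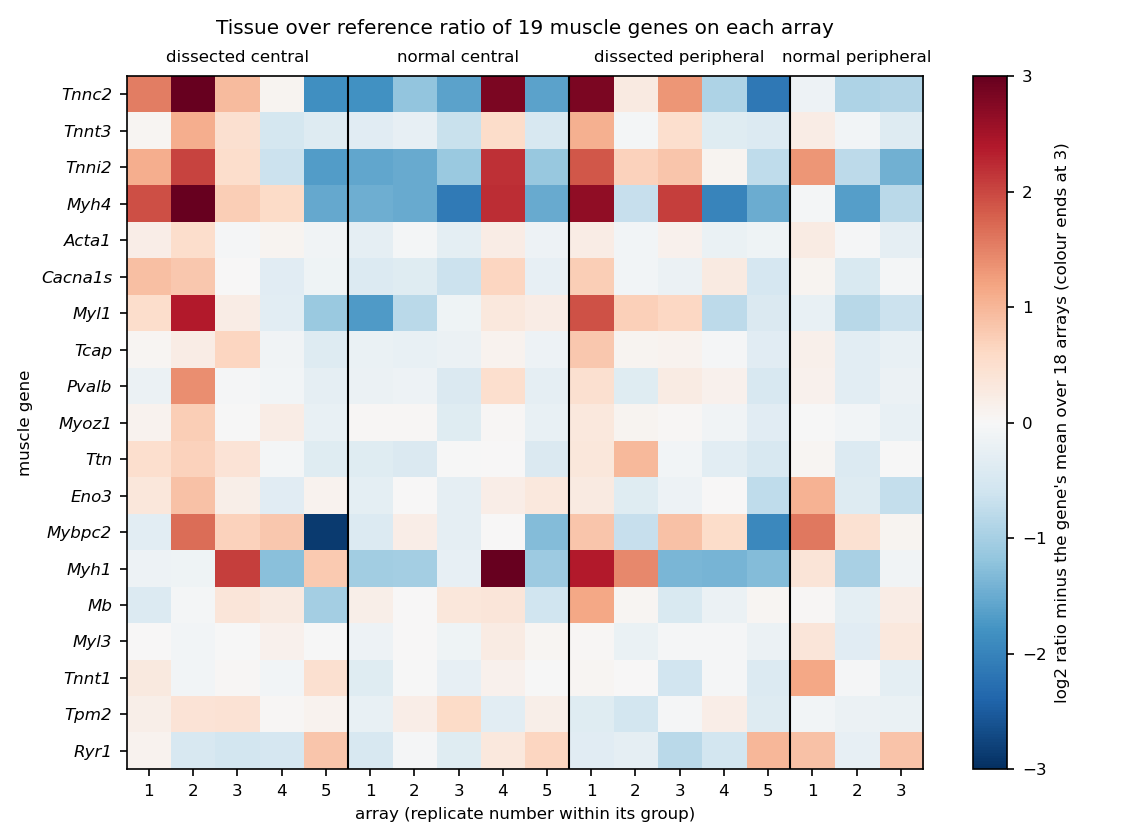
Log2 ratio of each of the 19 tested genes minus its own mean (colour) on each array, with genes ordered by their correlation with the mean of the other tested genes. Red columns stand at dissected central 2 (mean 1.05), dissected peripheral 1 (0.91) and normal central 4 (0.71). The lowest means were those of dissected peripheral 5 (-0.60), normal central 1 (-0.58) and dissected central 5 (-0.51).

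In the central area after partial thyroidectomy, Myh4, Tnnc2, Tnni2 and Myl1 averaged higher than in normal central areas, with a spread within each group as wide as the difference. Myh4 averaged -0.23 ± 2.26 in dissected and -2.39 ± 1.75 in normal central areas (SD, n = 5 each). The difference was 2.16 ± 1.09 (SE), with a 95% interval of -0.14 to 4.46 and an adjusted p of 0.958 by limma. Tnnc2 averaged -0.24 ± 1.89 in dissected and -1.73 ± 1.97 in normal central areas, a difference of 1.49 with an interval of -0.66 to 3.64. The differences were 0.88 for Tnni2, 0.76 for Myl1 and 0.45 for Cacna1s, each with an adjusted p of 0.998 by limma. Of the 19 genes, 0 were called and 0 had an unadjusted p under 0.05, beside 0% of all 14684 genes called and 5.24% with an unadjusted p under 0.05. The median difference of the 19 genes was 0.28, with 16 higher after dissection, against a median of -0.01 over all genes, of which 48.7% were higher. Ttn and Myoz1, which passed the filter only through dissected arrays, are among the 16. With no filter on dim probes, 15 of the 19 were higher. With the deposited log ratio the median of the muscle genes was 0.89, and it was 0.88 with the authors' value table. Both lack the offset that pulls ratios of dim spots towards 0, and their medians over all genes are not given. With the deposited log ratio the 19 genes ran between -0.79 and 2.48, and 15 were higher. No gene of the 19 had groups that did not overlap.

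These central differences rested on few arrays. Without dissected central 2, the array that stood apart from its label, Myh4 differed by 1.31, Tnnc2 by 0.86, Tnni2 by 0.44 and Myl1 by 0.25, and the median of the 19 genes was 0.15. Without normal central 4, Myh4 differed by 2.93 and Tnnc2 by 2.37, and the median was 0.43. Leaving out the 4 weak arrays gave 0.81 for Myh4, 0.41 for Tnnc2 and a median of 0.08. The 2 scan days differed too. On scan day 1, with 2 arrays of each central group, the differences were 0.61 for Myh4, -0.10 for Tnnc2 and -0.61 for Tnni2, and the median was -0.01. On scan day 2, with 3 arrays of each, they were 3.18, 2.55 and 1.88 in the same order, and the median was 0.43.

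In the peripheral area after partial thyroidectomy, Myh4, Myl1, Tnnc2 and Tnni2 averaged higher than in normal peripheral areas by 0.84 to 0.98, again within the spread of single arrays. Myh4 averaged -1.39 ± 2.11 in dissected (SD, n = 5) and -2.35 ± 0.79 in normal peripheral areas (SD, n = 3), and the difference of 0.96 had an interval of -1.70 to 3.61. Myl1 averaged -0.08 ± 1.06 in dissected and -1.05 ± 0.30 in normal peripheral areas, a difference of 0.98 and an adjusted p of 0.714 by limma. Tnnc2 differed by 0.93, Tnni2 by 0.84 and Cacna1s by 0.20. The other 7 fast fibre genes differed by -0.78 (Mybpc2) to 0.24 (Tnnt3). Of the 19 genes, 0 were called and 0 had an unadjusted p under 0.05, beside 0% and 8.34% of all genes. The median difference was 0.14, with 13 genes higher, Ttn and Myoz1 among them, against 0.01 over all genes, of which 51.0% were higher. The median of the muscle genes was 1.01 with the deposited log ratio and 1.04 with the authors' value table. With the deposited log ratio the 19 genes ran between -1.30 and 1.59, and 14 were higher. Without dissected peripheral 1, Myh4 differed by 0.33, Tnnc2 by 0.29 and Cacna1s by 0.02, and the median was 0.0050. Without the 4 weak arrays Myh4 differed by 0.71 and the median was 0.13. Within scan day 1, which holds 1 normal peripheral array, Myh4 differed by 0.86 and Tnnc2 by 1.08, with that array taken to vary like the other groups, and within scan day 2 by 1.02 and 0.86.

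**Figure D5:**
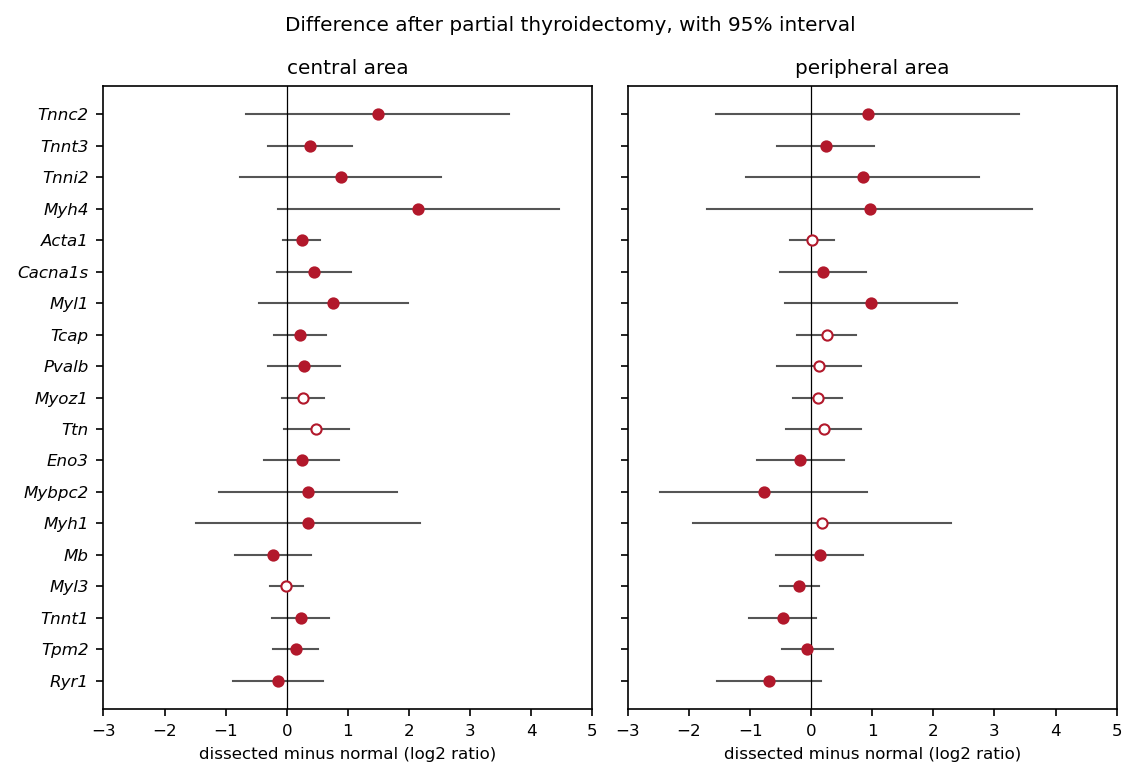
Difference of log2 ratios after partial thyroidectomy, dissected minus normal, for the 19 genes in the central (left) and the peripheral area (right), with 95% intervals of the limma fit. Open points mark genes whose plotted probe was well above background on no array of 1 of the groups compared, and every interval in both panels includes 0.

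In some groups no probe of a gene was well above background in Cy5, so the level there is only an upper limit. This held for Acta1, Pvalb, Tcap and Ttn in normal peripheral areas and for Myoz1 in both normal groups, and no least fold is given for them. For Myh1 in normal peripheral areas, Ttn in normal central areas and Myl3 in dissected central areas it held only for the probe that stands for the gene, and another probe was well above background there.

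Between areas of dissected thyroid, Tpm2 stood out among the 19 genes without passing the test. It averaged 0.27 ± 0.18 in central and -0.19 ± 0.30 in peripheral areas (SD, n = 5 each). The difference was 0.46 ± 0.17 (SE), with an interval of 0.10 to 0.82, an unadjusted p of 0.016 and an adjusted p of 0.466 by limma. Only dissected peripheral 4 lay within the central range. Of the 19 genes, 0 were called, beside 0.586% of all genes, and 1 had an unadjusted p under 0.05, beside 7.42%. Myh4 was higher in central areas by 1.15, with an interval of -1.15 to 3.45. The median of the 19 genes was 0.16, and 0.03 without dissected central 2.

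Between areas of normal thyroid, Myh4 and Tnnc2 were close in their means. Central minus peripheral, Myh4 differed by -0.04, with an interval of -2.70 to 2.61, and Tnnc2 by -0.03, with one of -2.51 to 2.46. Mybpc2 averaged -0.54 ± 0.59 in central (SD, n = 5) and 0.52 ± 0.78 in peripheral areas (SD, n = 3), a difference of -1.06 with an interval of -2.75 to 0.62. Of the 19 genes, 0 were called and 0 had an unadjusted p under 0.05, beside 0.279% and 8.57% of all genes. Without normal central 4 the difference was -0.82 for Myh4 and -0.91 for Tnnc2. The median was -0.04, and 8 of the 19 genes were higher in central areas, beside 52.3% of all genes. The count of muscle genes was 1 without dissected central 2 and normal central 4, 16 without the 4 weak arrays and 13 with the slide or the replicate number as a block. The share of all genes is not given for these settings. The median was -0.19 without normal central 4 and 0.10 without normal peripheral 1.

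The change after dissection was also compared between the areas, as the central minus the peripheral change. Of the 19 genes, 0 were called and 0 had an unadjusted p under 0.05, beside 0% and 5.83% of all genes, and the median was 0.21. Myh4 had the largest value of the 19, at 1.20 with an interval of -2.32 to 4.71. The F test among the 4 groups called 0 of the 19 genes, beside 1.06% of all genes, while 8.93% of all genes had an unadjusted p under 0.05, with a smallest adjusted p of 0.593 for Tpm2 by limma. In bulk samples like these, fewer muscle cells in an area and less muscle RNA per cell cannot be told apart.

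A longer list of 59 further muscle genes was compared, of which 30 were measured. None of these 30 was called in any of the 5 comparisons between groups, beside the same shares of all genes as above. Their median difference after dissection was 0.05 in the central area, with 20 higher, and -0.04 in the peripheral area, with 13 higher. Of all genes, 48.7% were higher in the central and 51.0% in the peripheral area. The 3 genes described next were chosen after their values were seen. Smpx, a stretch-responsive muscle protein, and Fbxo32, a ubiquitin ligase of muscle wasting, were highest on normal peripheral 1, at 2.53 and 3.01, a weak array on which Myh4 was at -1.57. Sln, an inhibitor of the calcium pump, was high on dissected central 3, at 1.497, and dissected peripheral 1, at 1.63, and no more than 0.46 on the other arrays. Of the satellite cell and myoblast genes, Pax7, Myf5 and Myf6 were well above background on no array. Myod1 was so on all 18 arrays and Myog on 9. Myod1 kept within 0.06 and 0.69, and Myog within 0.02 and 0.29. Of the cardiac genes, Tnnt2 and Myh6 were well above background on no array, and none of the 4 measured ones, Nppa, Ryr2, Tnni3 and Actc1, was called.

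The 10 genes outside the set whose ratio was most like the mean of the 19 over the 18 arrays had Pearson correlations of 0.68 to 0.93. Myh8 came first at 0.93, followed by Erf at 0.80, the transcript AK033351 at 0.74, Adrm1 at 0.73 and Socs2 at 0.70, and then Tcf19, Myot, Map4k2, Tmem198, measured on 12 arrays, and Nr1d2. Of these, Myot encodes a Z disc protein of muscle. Myh8 was at 3.15 on dissected central 2, against 0.80 on normal central 4, and at 1.36 on dissected peripheral 1. The other 3 probes of Myh8 were well above background on 0, 0 and 1 of the 18 arrays. Myh4 was at 3.14 on dissected central 2, 0.70 on normal central 4 and 1.15 on dissected peripheral 1. The part of Myh1 transcripts, through the 19 shared bases, or of Myh4 transcripts in the Myh8 value was not tested.

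Markers of other tissues were set beside the muscle arrays. Of 7 fat cell genes, 6 were measured and 0 were called. Their centred mean ran between -0.35 and 0.48 on dissected central arrays, against -0.71 and 0.43 on normal central arrays. It ran between -1.23 and 1.63 on dissected peripheral arrays, against -0.15 and 1.20 on normal peripheral arrays. On the arrays with the highest Myh4, it was 0.48 on dissected central 2, -0.71 on normal central 4 and -1.23 and -1.04 on dissected peripheral 1 and 3. All 7 smooth muscle genes were measured and 0 were called, and their centred mean was 0.63, 0.59, -0.20, -0.35 and -0.34 on the dissected central arrays, against -0.64, 0.40, 0.25, -0.12 and 0.53 on the normal central arrays. The part of these tissues in the muscle values was not tested.

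Upstream sequence is shown for Myh4 and Tnnc2, the most variable of the genes that moved together, from RefSeq on the build GRCm38.p6, as the 200 bases before the annotated start. Capitals mark a MEF2 site, a CArG box and E boxes (CANNTG), searched on both strands, with no overlap between them in these 2 sequences. The Myh4 stretch is chr11:67237612-67237811, plus strand, and the Tnnc2 stretch is chr2:164779735-164779934, minus strand.
Myh4 upstream: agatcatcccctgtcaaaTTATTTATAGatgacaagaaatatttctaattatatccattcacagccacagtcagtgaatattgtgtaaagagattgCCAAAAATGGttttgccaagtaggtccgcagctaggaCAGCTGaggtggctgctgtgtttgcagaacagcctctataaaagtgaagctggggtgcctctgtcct
Tnnc2 upstream: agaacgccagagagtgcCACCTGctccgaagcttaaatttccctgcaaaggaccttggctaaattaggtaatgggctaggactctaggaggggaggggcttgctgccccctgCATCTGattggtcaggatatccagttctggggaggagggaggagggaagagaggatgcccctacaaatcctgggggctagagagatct
MEF2 and serum response factor, which binds the CArG box, and the myogenic factors that bind E boxes are known activators of muscle genes. The Myh4 stretch holds, in order, a MEF2 site, a CArG box and 1 E box, and the Tnnc2 stretch holds 2 E boxes. The RefSeq table matched 30 of the 36 genes. An E box was found in 21 of these 30 and in 58.2% of all 32851 promoters, a MEF2 site in 3 and in 2.29%, and a CArG box in 4 and in 1.18%. A match is a description of the letters and not of binding.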

How the data were processed

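Expression was measured on 18 Agilent 2-colour arrays. Per the file headers, Feature Extraction 9.5.1.1 gave each deposited spot intensity, its local background and a log10 ratio of Cy5 over Cy3. Version 8.5.1.1 stands in the submitters' processing notes. The other deposited values used are flags for spots well above background, saturated or non-uniform. A deposited value table gives a linear ratio per probe, and its processing is not given in the sources used here. Its direction and linear scale were read from its correlations of 0.975 to 1.00 with the scanner ratios, and column medians ran between 0.871 and 1.064. It served only as an alternative.

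Background was corrected by normexp (offset 50) on mean intensities, followed by loess normalization within each array, with control spots at weight 0. Non-uniform spots were left out, at most 108 per array. A probe was kept if well above background in Cy5 on at least 3 arrays, which left 19107 probes and 14684 genes. The offset pulls ratios of dim spots towards 0. Probes were named by accession or symbol through a RefSeq gene table of GRCm38.p6. All 18 arrays entered 1 limma model of the 4 group means (limma 3.58.1, R 4.3.3), and p-values were adjusted by the Benjamini-Hochberg method over all genes. The number of arrays limits the precision. The fit was tested on simulated data. Muscle genes, lists, named genes and alternatives were chosen with earlier results of these data known. Named genes were all 36 members, the 10 other genes most correlated with their mean, Tg and Calca, and any gene of the further lists past an adjusted p of 0.05. Pth, Smpx, Fbxo32, Sln and the cardiac and myoblast genes were named after their values were seen. The C cell genes that passed are not described here. Where a label gives no separate animals, p-values measure only the spread between areas.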

Additional observations from a re-analysis of the deposited data

Results flagged for a closer look

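Of 57 groups of 5 arrays examined over the 19 genes, 6 held an array set far from the other 4. In these 6 the gap to the nearest array was 0.80 to 0.88 of the group's range. Genes that vary together share such arrays, so the 6 are not separate events and were not set against chance. The share over all genes was not determined. Normal central 4 was that array for 5 genes. Its log2 ratio was 2.25 for Myh1, against -0.99 on the nearest normal central array. It was 0.70 for Myh4, against -2.97, and 1.78 for Tnnc2, against -2.24. It was 1.58 for Tnni2, against -1.74, and 0.019 for Tcap, against -0.23. The 6th was dissected central 2 for Pvalb, at 1.31, against -0.12 on the nearest dissected central array.

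For Tnnt1, every dissected central array was above the mean of normal central areas, and every dissected peripheral array was below the mean of normal peripheral areas. The difference between the changes was 0.69 with an adjusted p of 0.790 by limma, so it did not pass the test, and it was 0.25 without normal peripheral 1, a weak array. Without that array the peripheral change was -0.02, against -0.47 with it.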

How the results depend on the processing

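No setting called any of the tested muscle genes in any comparison. On scan day 1 alone, the central change after dissection turned to -0.17 for Cacna1s, -0.15 for Myl1, -0.10 for Tnnc2 and -0.61 for Tnni2. The deposited log ratio and the authors' value table, which lack the offset, gave muscle medians of 0.89 and 0.88 for the central and 1.01 and 1.04 for the peripheral change. The counts below are over all genes. With either of these 1 gene was called for the peripheral change, and 78 and 94 between areas of normal thyroid. That count was 66 with no background correction, 8 with no filter, 17 with the slide as a block, 1 and 0 within scan days 1 and 2, and 95 without the 4 weak arrays, a setting chosen after seeing the data. Between areas of dissected thyroid, 45 genes were called with Cy5 alone, 26 and 0 within the scan days, 19 with only the arrays compared, 195 without the weak arrays and 166 without dissected central 2 and normal central 4, also chosen after seeing the data. The F test called 16 and 0 within the scan days.

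The labels tie replicate numbers to no animal or batch. Of 24 same-numbered pairs, 21 shared a slide and 9 had deviations correlated above 0.1, among them 4 of 5 pairs of dissected central with dissected peripheral arrays, so the numbers were not taken as pairs although slide and number overlap. With the replicate block, 4 genes were called between areas of normal thyroid, against 41 without it. The block gave 1.48 for the peripheral change of Myh4, against 0.96, and a peripheral median of 0.25. It cannot alter central differences, where both groups hold the same numbers.

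Leaving out each array in turn gave 46 to 173 genes between areas of dissected thyroid, 1 to 76 between areas of normal thyroid, 107 to 184 in the F test, and 0 to 1 for either change after dissection. It gave medians of 0.15 to 0.43 for the central change, 0.0050 to 0.30 for the peripheral change, 0.03 to 0.28 between dissected areas, -0.19 to 0.10 between normal areas and 0.10 to 0.41 for the difference between the changes. Signal over background limits the dim genes, as 17 of the 36 were well above background on fewer than 3 arrays.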
